A study of Mus musculus with 19 samples.

Results

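The bone morphogenetic protein (BMP) ligands and antagonists described here are 9 of the 27998 genes counted in single cells of a mouse tenotomy site. They were taken by gene symbol, as the ligands Bmp2, Bmp4, Bmp5, Bmp6 and Gdf10 and the inhibitors Grem1, Chrdl1, Fst and Bambi by a rule that uses no measured value, although earlier results of these data were known when the set was drawn up. The study examined heterotopic ossification, bone that forms in injured soft tissue, after a dorsal burn of 30% of the body surface and transection of the Achilles tendon. Sites were sampled in 4 libraries each at days 0, 7 and 21 and in 3 libraries at day 3. Another 4 libraries, named p7N3 here, were from injured mice given a CD47-activating peptide of that name at 10 mg/kg intraperitoneally each day for 3 days before and 3 days after injury. Of these, p7N3 replicates 1 to 3 were harvested at day 7, and no harvest day is given in the labels for replicate 4. The labels name C57 mice and LysmCre/Tgfb1fx/fx mice, in which Cre is driven by the myeloid Lyz2 promoter, without saying which library came from which. The burn is listed for day 0 as well, while the methods describe that time as before injury. The labels name no vehicle for day 7. The study names a PBS group beside the peptide group, without saying that the day 7 libraries came from it. The methods describe the single-cell replicates as a gauge of variation between mice, the labels tie no library to an animal, and p values measure the spread between these libraries.

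BMPs are secreted dimers that bind pairs of type I and type II serine/threonine kinase receptors, after which SMAD1, SMAD5 and SMAD8/9 are phosphorylated and enter the nucleus, where they raise transcription of genes such as Id1, Id3 and Smad6. The pathway was named for its ability to induce ectopic cartilage and bone, and BMP ligands are known as triggers of endochondral ossification. It is held in check outside the cell by antagonists that bind the ligand, such as gremlin, chordin-like proteins and follistatin, and at the membrane by BAMBI, a pseudoreceptor without a kinase domain.

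Cells were separated into lineages by marker genes. Of 33 clusters, 29 were named, and 4 with 1107 of the 39541 cells remained unnamed. Levels are given as CPM, in which the UMIs (counted molecules) of a gene are scaled to the same total of UMIs for each lineage and library, and ± is the SD over libraries for a level and the SE for a log2 fold change. Day 0 libraries had 3019467 to 5383855 UMIs in their cells and those of the other groups 11064153 to 39870492 in all lineages together. In endothelial-like cells the order differed, with 82 cells and 2435755 UMIs at day 3 against 995 cells and 4145650 UMIs at day 0. Between 991 and 1742 UMIs of the 9 genes were counted in a day 0 library. No pair of libraries shared more than 22 barcodes, or more than 1.26% of those of the smaller library. The stromal-like, endothelial-like, mural-like and monocyte/macrophage-like cells each carried UMIs of all of their defining markers. Markers of other cell types were detected in them. In stromal-like cells the summed level of 9 monocyte/macrophage markers was 96.9 to 192 CPM at day 0 and 1347 to 1464 CPM at day 3, all 9 being detected, and that of 7 granulocyte markers was 55.8 to 100.0 and 1437 to 2450 CPM. Ptprc, the leukocyte gene for CD45, was at 1.65 ± 1.17 CPM (n = 4) in stromal-like cells at day 0 and 20.4 ± 3.84 CPM (n = 3) at day 3. In stromal-like cells 9 mural markers, all detected, summed to 103 to 109 CPM at day 0 and 689 to 1877 CPM at day 7. Whether the stromal-like cells made these markers themselves was not tested, nor was the part of such markers in the stromal levels.

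Over all cells of a library, mean levels of Bmp4, Gdf10 and Fst were highest at day 0. Bmp4 was at 44.2 ± 6.55 CPM at day 0, 2.27 ± 0.373 CPM at day 3, 4.37 ± 0.941 CPM at day 7 and 12.1 ± 3.30 CPM at day 21. Gdf10 was at 76.1 ± 11.6, 18.3 ± 2.63, 14.01 ± 7.43 and 43.0 ± 8.22 CPM, and Fst at 113 ± 18.2, 37.4 ± 6.67, 49.4 ± 7.75 and 66.5 ± 12.0 CPM (n = 4, 3, 4 and 4). These values were not tested, since the shares of the lineages differed between the days.

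Transcripts of the ligands lay in different lineages, and those of Fst and Gdf10 mainly in stromal-like cells. Gdf10, also named BMP3B, was the most restricted, with 95.5% ± 1.91 of its UMIs in stromal-like cells at day 0 and 88.7% ± 4.95 with p7N3. Those cells held 34.99% ± 7.88 and 48.5% ± 3.58 of all UMIs. Fst, the gene of follistatin, which binds activins and some BMPs, had 90.4% ± 4.46 of its UMIs in stromal-like cells at day 0 and 43.2% ± 4.33 at day 21, when mural-like cells held 30.1% ± 4.97 and cells with tendon and cartilage markers 20.1% ± 4.61. Bmp2, a ligand required for fracture repair, had 45.8% ± 13.3 in stromal-like cells at day 0 and 63.1% ± 7.42 in mural-like cells at day 21. Bambi had 36.8% ± 3.597 in endothelial-like cells at day 0 and 53.4% ± 3.24 in monocyte/macrophage-like cells at day 3, the group in which the latter held 46.3% ± 1.61 of all UMIs.

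**Figure D1:**
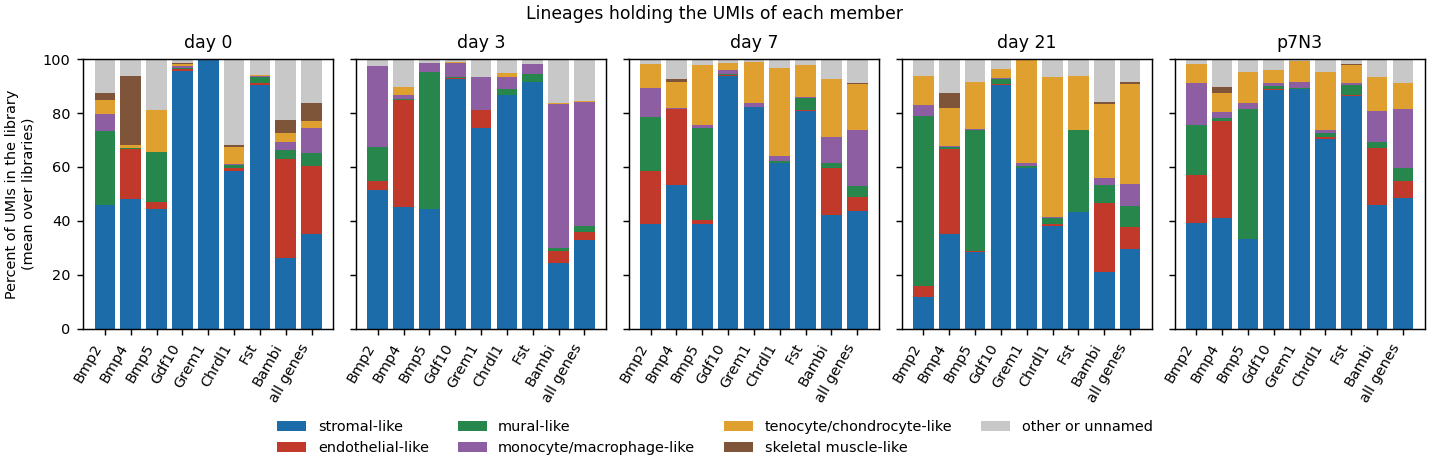
Stacked bars give the mean percentage, over the libraries of a group, of each gene's UMIs that lay in each lineage, with all genes as the last bar of each panel. Gdf10 was mostly stromal-like (blue) in each group, and the mural-like share (green) of Bmp2 and Fst was highest at day 21. Grem1 at day 0 rests on 1 library.

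At day 7 the order of levels differed from gene to gene. Of the 4 lineages, Bmp2 was highest in mural-like cells, at 53.9, 32.9, 42.7 and 30.5 CPM, and next in endothelial-like cells, at 26.4, 39.5, 16.5 and 44.1 CPM, and these neighbours overlapped. It was 8.62, 5.86, 8.12 and 6.03 CPM in stromal-like cells, below every mural-like and endothelial-like library. Bmp5, a ligand that shapes limb and ear cartilage, was at 32.2, 24.1, 19.3 and 20.3 CPM in mural-like cells and at 1.84, 1.93, 4.47 and 2.61 CPM in stromal-like cells, without overlap. Bmp4, a ligand with roles in limb, vascular and muscle tissue, was at 22.9, 32.0, 22.3 and 15.8 CPM in endothelial-like cells and 4.94, 6.89, 4.40 and 4.87 CPM in stromal-like cells, again without overlap. Bambi stood at 98.6, 98.7, 118 and 101 CPM in endothelial-like, 25.7, 29.3, 34.5 and 33.3 CPM in stromal-like, 13.99, 15.4, 13.5 and 16.4 CPM in monocyte/macrophage-like and 14.96, 14.6, 15.2 and 7.99 CPM in mural-like cells, the last pair overlapping. Levels are molecules and were not divided by gene length, since the method counts transcript ends, and genes are therefore not ranked against each other.

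The lineages of the same day 7 libraries were compared with the library as a block, using edgeR's quasi-likelihood test with Benjamini-Hochberg adjustment over all genes, and passed means an adjusted p under 0.05. Members under the count filter of a comparison were not tested, so that counts and medians describe the tested members only. Against stromal-like cells, 3 of 8 tested members were higher and 5 lower in endothelial-like cells, where 58.6% of 13245 genes passed, 26.6% higher and 32% lower. The median log2 difference of the 8 was -3.98, against -0.051 over all genes. The 5 lower members were under the count filter in every comparison within endothelial-like cells. They passed it here through stromal-like cells, which fixed their direction, so that the count and median are no separate support. The higher members were Bmp2 (1.88 ± 0.26, adjusted p = 2.9e-05), Bmp4 (1.92 ± 0.17, adjusted p = 3.0e-07) and Bambi (1.55 ± 0.09, adjusted p = 4.5e-09). Fst, at 1.79, 1.07, 3.18 and 1.66 CPM in endothelial-like and 116, 66.9, 92.9 and 92.4 CPM in stromal-like cells, was lower (-5.86 ± 0.18, adjusted p = 8.7e-12), as were Gdf10 (-6.11 ± 0.31), Chrdl1, Bmp5 (-2.10 ± 0.59) and Grem1. The Bmp5 difference lost its call without day 7 replicate 3 (log2 -1.43, adjusted p = 0.0611) and with members allowed among the variable genes of the clustering (-1.16, adjusted p = 0.0686). No Grem1 UMI was found in endothelial-like cells, whose pooled level was at least 14.7-fold lower by a floor of 3 counts over the group. Chrdl1, the chordin-like antagonist, had 1 UMI there against 1120 in stromal-like cells, a pooled ratio of 0.00746 with a 95% counting interval of 0.000189 to 0.0417, which covers counting error only.

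In mural-like cells, 2 of 8 tested members were higher than in stromal-like cells and 6 lower, where 47.1% of 13188 genes passed, 22% higher and 25.1% lower, and the median was -2.13 against -0.0071 over all genes. Bmp2 (2.26 ± 0.13, adjusted p = 7.5e-08) and Bmp5 (2.94 ± 0.29, adjusted p = 6.7e-06) were the higher members. Bmp4 and Grem1 had no UMI in mural-like cells at day 7, at least 10.1-fold and 11.4-fold lower, and Gdf10 (-4.05 ± 0.26), Chrdl1 (-2.84 ± 0.34), Fst (-1.02 ± 0.16) and Bambi (-1.43 ± 0.18) were also lower. In monocyte/macrophage-like cells 7 of 8 tested members were lower, where 77.6% of 13467 genes passed and 40.9% were lower, and the median was -3.96 against -0.053. Bmp2 was the exception, at a log2 difference of -0.34 ± 0.23 and an adjusted p of 0.178. Among the 8, Bambi had the smallest difference that passed, at -0.67 ± 0.11 (adjusted p = 5.0e-05). Bmp4, Grem1, Gdf10 and Chrdl1 were under the count filter in every comparison within mural-like cells. So were these and Bmp5 within monocyte/macrophage-like cells. They passed it here through stromal-like cells, which fixed their direction.

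**Figure D2:**
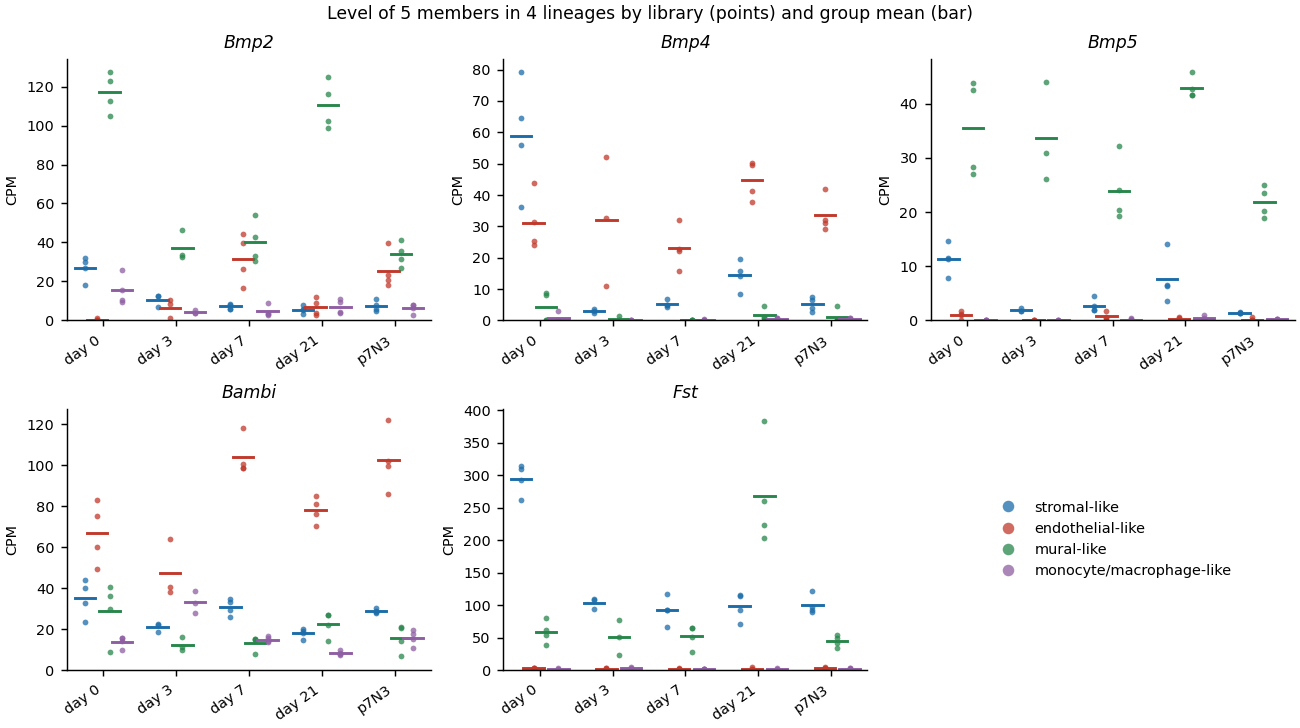
CPM (linear axes from 0) of Bmp2, Bmp4, Bmp5, Bambi and Fst in 4 lineages, each point a library and each bar a group mean. Bmp2 and Bmp5 were highest in mural-like cells, and Bambi in endothelial-like cells, whose day 7 libraries sat between 98.6 and 118 CPM.

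In stromal-like cells, most ligands and inhibitors were highest at day 0. At day 3, 7 of 7 tested members were lower than at day 0, where 66.2% of 10393 genes passed and 32.9% were lower. Bmp4 and Bmp5 passed the count filter of that comparison through day 0 alone, which largely fixed their direction. They add no separate support to the count. The 3 comparisons share the day 0 libraries. At day 7, of 8 tested members, Grem1 was higher, 6 were lower and Bambi did not pass, where 53.8% of 12376 genes passed, 28% higher and 25.8% lower. At day 21 Bmp2, Bmp4, Gdf10, Fst and Bambi, 5 of 7 tested, were lower than at day 0 and Chrdl1 was higher, where 33.2% of 10244 genes passed, 16.8% higher and 16.4% lower. The clusters that held the lineage differed between the days. Cluster 9, led by Myoc and Gsn, held 1115 of 1146 cells at day 0. Cluster 17, led by Cfd, Prg4 and Adipoq and with a Ptprc UMI in 45.1% of its cells, held 729 of 814 at day 3. In a finer clustering, at a Leiden resolution of 2, 678 day 3 cells lay in a stromal-like cluster led by Cxcl14 and Lcn2. The cluster led by Cfd, Car3 and Prg4 there held 70, so that these genes do not describe most day 3 cells. At day 7 cluster 1, led by Sfrp4 and Clec3b, held 1516 of 4173 cells, cluster 8, led by Crabp1 and Col7a1, held 955, cluster 7, led by Gzme and Sfrp1, held 873 and cluster 15, led by mitotic genes, held 598, and at day 21 cluster 1 held 1061 of 1600.

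Bmp4 was at 79.4, 55.8, 64.4 and 36.1 CPM in the day 0 libraries and at 2.24, 3.65 and 2.93 CPM at day 3, groups far apart. It was 4.94, 6.89, 4.40 and 4.87 CPM at day 7 and 14.3, 19.7, 15.8 and 8.42 CPM at day 21, when every library was above every day 7 library and below every day 0 library. The log2 fold changes from day 0 were -4.24 ± 0.25, -3.49 ± 0.22 and -2.10 ± 0.25 (edgeR adjusted p = 8.0e-09, 5.7e-08 and 5.7e-05). Gdf10, a BMP3-like ligand known to act against osteogenic BMPs in some settings, was at 197, 295, 192 and 174 CPM at day 0 and 45.4, 51.8 and 58.1 CPM at day 3. It reached 42.8, 21.1, 43.7 and 13.2 CPM at day 7 and 132, 143, 104 and 147 CPM at day 21. No library of days 3, 7 or 21 overlapped day 0, and the fall was -1.94 ± 0.15, -2.79 ± 0.32 and -0.65 ± 0.15 (adjusted p = 1.1e-07, 9.9e-06 and 0.00435). The day 21 call of Gdf10 was lost in 1 fit of all 5 groups (-0.63, adjusted p = 0.0762) and in cluster 9 alone.

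Gdf10 lies on the plus strand of chromosome 14 at 33923587 to 33937983 and Bmp4 on its minus strand at 46383520 to 46390669 (GRCm38, GENCODE vM21). Bmp4 overlaps Gm15217 and Gm15222, genes annotated on the other strand, so that its counts are uncertain where strand was not used. The 250 bases before each start are shown for these ligands, which were not the only members to fall, and a link to the falls was not tested. They are RefSeq's GRCm38.p6 sequence, Gdf10 at chr14:33923337-33923586 (plus strand) and Bmp4 at chr14:46390670-46390919 (minus strand), and capitals mark GGGCGG, the GC box, on either strand, where matches may overlap.
Gdf10: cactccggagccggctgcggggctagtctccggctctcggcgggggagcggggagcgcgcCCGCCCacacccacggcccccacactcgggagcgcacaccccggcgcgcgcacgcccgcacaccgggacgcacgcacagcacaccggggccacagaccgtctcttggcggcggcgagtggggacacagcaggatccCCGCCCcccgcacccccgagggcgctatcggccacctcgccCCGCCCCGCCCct
Bmp4: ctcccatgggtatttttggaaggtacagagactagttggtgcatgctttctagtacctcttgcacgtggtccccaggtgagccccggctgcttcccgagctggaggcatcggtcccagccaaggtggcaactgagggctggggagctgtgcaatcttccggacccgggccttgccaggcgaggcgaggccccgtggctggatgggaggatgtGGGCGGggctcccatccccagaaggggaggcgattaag
The Gdf10 window held 4 GC boxes at a GC content of 78.8%, and the Bmp4 window 1 at 63.2%, beside a median GC content of 52.4% over 32851 promoters. A GC box was present in 32.7% of those promoters. Neither window held TATAAA, found in 12.4%, or GGCGCC, found in 9.59%, on either strand. Of the other windows read, those of Grem1, Bmp6 and Bmp5 held 3, 1 and 0 GC boxes.

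Bmp2 lies on chromosome 2 at 133552159 to 133562885 and Bmp5 on chromosome 9 at 75775364 to 75900310, both on the plus strand. Bmp5 overlaps Gm47723, annotated on the same strand, and Gm26903, on the other, so that its counts are uncertain. Bmp2 was at 32.1, 18.2, 26.8 and 30.1 CPM in stromal-like cells at day 0, 12.4, 12.5 and 6.78 CPM at day 3, 8.62, 5.86, 8.12 and 6.03 CPM at day 7 and 5.64, 7.71, 5.28 and 3.07 CPM at day 21. All later libraries were below all day 0 libraries, and the changes of -1.28 ± 0.23, -1.94 ± 0.20 and -2.42 ± 0.26 passed (adjusted p = 2.5e-04, 4.3e-06 and 2.2e-05). Bmp5 was at 14.6, 7.79, 11.5 and 11.3 CPM at day 0 and 1.71, 2.22 and 1.73 CPM at day 3. It was at 1.84, 1.93, 4.47 and 2.61 CPM at day 7 and 6.51, 14.2, 6.34 and 3.64 CPM at day 21. Its day 21 libraries overlapped day 0, and the change was -2.53 ± 0.27 at day 3, -2.09 ± 0.33 at day 7 and -0.73 ± 0.38 at day 21 (adjusted p = 2.1e-06, 1.5e-04 and 0.163). Bmp6, a ligand that in liver endothelium sets hepcidin and iron levels, had 3, 5, 6 and 5 UMIs in the stromal-like cells of days 0, 3, 7 and 21 and was not tested there.

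Fst, on chromosome 13 at 114452290 to 114458951 (minus strand), was at 262, 314, 292 and 309 CPM in stromal-like cells at day 0. At day 3 it was 108, 109 and 94.4 CPM, at day 7 116, 66.9, 92.9 and 92.4 CPM and at day 21 92.5, 114, 116 and 70.9 CPM, so that the later groups overlapped each other and none reached day 0. It fell by 1.41, 1.65 and 1.56 on the log2 scale (SE 0.10, 0.15 and 0.15, adjusted p = 5.7e-08, 1.1e-06 and 8.4e-06). Fst overlaps Gm47040, annotated on the other strand. Chrdl1, on the minus strand of chromosome X at 143285674 to 143394262, took another course. Its level was 38.3, 39.0, 27.8 and 30.8 CPM at day 0, 17.9, 24.8 and 20.9 CPM at day 3, 25.7, 13.5, 23.0 and 11.5 CPM at day 7 and 53.4, 73.1, 53.2 and 44.9 CPM at day 21. Every day 21 library was above every library of the other days. The changes were -0.57 ± 0.16, -0.86 ± 0.26 and 0.75 ± 0.16 (adjusted p = 0.00623, 0.0132 and 0.00351), and the fall did not pass at day 3 in 1 fit of all 5 groups (log2 -0.53, adjusted p = 0.0941) or at day 7 without day 0 replicate 1 (log2 -0.75, adjusted p = 0.0652).

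Grem1, the gene of gremlin, a BMP2 and BMP4 antagonist found in limb buds and in skeletal stem cells, lies on chromosome 2 at 113746164 to 113758646 (minus strand). It had no UMI in stromal-like cells of 3 day 0 libraries and 6 UMIs, in 1 cell, of day 0 replicate 4 (4.508 CPM). In the comparison of day 7 with day 0, Grem1 thus passed the count filter through day 7, which largely fixed its direction. It was 0.213, 0.713 and 0.665 CPM at day 3, 3.10, 8.31, 6.61 and 5.39 CPM at day 7 and 6.08, 3.39, 0.704 and 6.83 CPM at day 21. The day 7 and day 0 groups overlapped through that 1 cell, and the rise to day 7 was 2.54 ± 0.79 (adjusted p = 0.0149). It did not pass in DESeq2 (adjusted p = 0.115), without day 0 replicate 1 (0.0693) or without day 0 replicate 3 (0.0598). Within the stroma at day 7, Grem1 was 8.41 ± 2.79 CPM in cluster 8, and 5.70 ± 5.20 CPM in cluster 7 (n = 4 each). Bambi was at 23.6, 44.2, 32.8 and 39.8 CPM at day 0, 22.5, 18.4 and 21.8 CPM at day 3, 25.7, 29.3, 34.5 and 33.3 CPM at day 7 and 20.3, 18.2, 19.01 and 14.8 CPM at day 21. The groups of day 3 and day 21 were below all day 0 libraries, and those of day 7 overlapped it. Bambi fell at day 3 (-0.60 ± 0.18, adjusted p = 0.0102) and day 21 (-0.88 ± 0.19, adjusted p = 0.00292) and was -0.11 ± 0.17 at day 7 (adjusted p = 0.602). With the replicate block the day 3 call was lost (-0.46, adjusted p = 0.060).

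**Figure D3:**
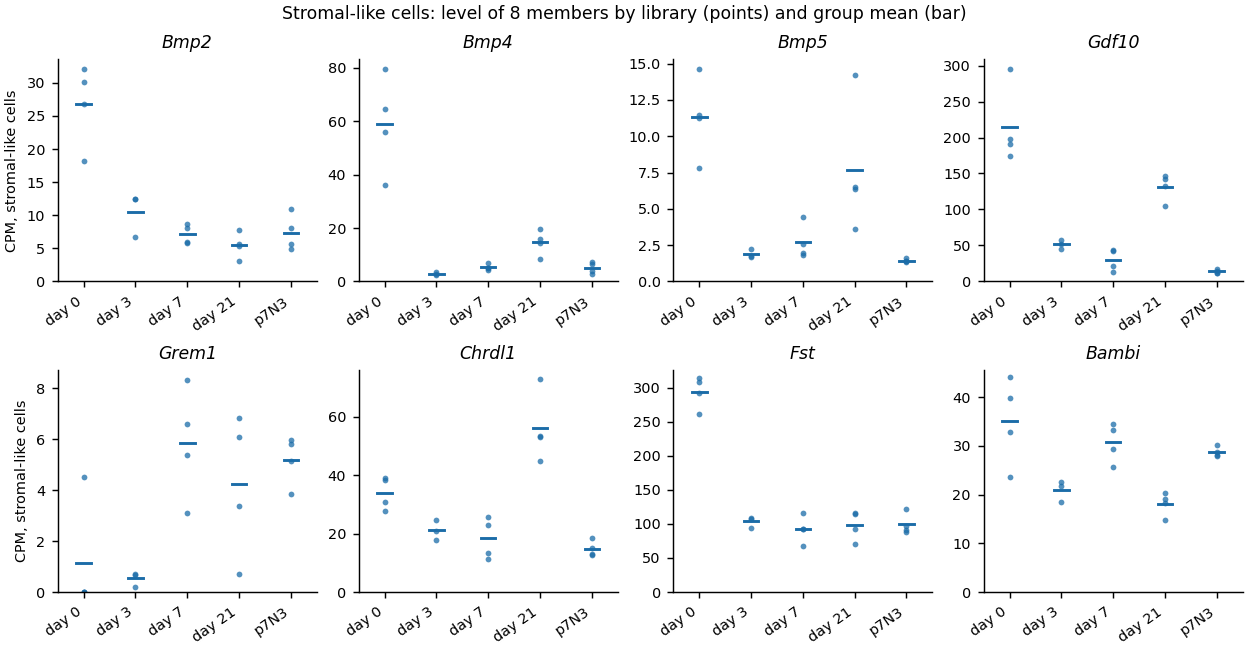
CPM (linear axes from 0, a scale of its own for each gene) of 8 members in stromal-like cells, with a point for each library and a bar for the group mean. Bmp4 dropped from a mean of 58.9 CPM at day 0 to 2.94 CPM at day 3, and Chrdl1 was highest at day 21 with a mean of 56.1 CPM.

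The median log2 fold change of the tested members was -1.41 at day 3, -1.80 at day 7 and -0.88 at day 21, against 0.0021, 0.019 and -0.016 over all genes. The day 3 median includes Bmp4 and Bmp5, whose direction the count filter largely fixed. Cells with any Ptprc UMI were then left out, a choice made after the data were seen. At day 3, where 62.1% of genes then passed and 31.1% were lower, 6 of 7 members were still lower and Chrdl1 was at -0.24 ± 0.19 (adjusted p = 0.303). Leaving out cluster 17, where 40.2% passed, 20.3% higher and 19.9% lower, left the same 6 lower, Bmp4 at -2.48 ± 0.36 and Gdf10 at -0.85 ± 0.22, while Chrdl1 turned to 0.49 ± 0.19 (adjusted p = 0.049). Cluster 17 was 89.6% of the day 3 cells, and cluster 9 was 0.614% of them against 97.3% at day 0. Different clusters were thus still compared, and cluster 9, with 5 cells at day 3, was not tested at that day.

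Cluster 9 alone, the cells that made up nearly all day 0 stroma, gave a narrower set. At day 7, where 15.4% of genes passed in that cluster and 6.88% were lower, 2 members were called, Gdf10 at -1.18 ± 0.24 (adjusted p = 0.0024) and Bmp4 at -1.67 ± 0.38 (adjusted p = 0.00573). Fst was 293 ± 28.8 CPM in cluster 9 at day 0 and 274 ± 118 CPM at day 7, a change of -0.12 ± 0.20 (adjusted p = 0.754). At day 21, where 6.08% passed and 3.32% were lower, Fst (-0.62 ± 0.12, adjusted p = 0.00395) and Bambi (-1.11 ± 0.26, adjusted p = 0.0158) were lower, and Gdf10 was -0.36 ± 0.15 (adjusted p = 0.174), Bmp2 -0.46 ± 0.25 (adjusted p = 0.342), Bmp4 -0.35 ± 0.21 (adjusted p = 0.403) and Chrdl1 0.23 ± 0.20 (adjusted p = 0.614). A lineage value thus combines levels within clusters with the makeup of the lineage.

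The share of cells with a UMI was compared after each cell was thinned to 1500 UMIs, which left out 66 of 1146 stromal-like cells at day 0 and none later. Gdf10 was found in 22.6% of thinned stromal-like cells at day 0, 7.62% at day 3, 5.92% at day 7, 16.8% at day 21 and 3.15% with p7N3 (unthinned 39.9%, 43.7%, 17.3%, 39.0% and 11.8%). In endothelial-like cells, whose cells had a median of 3215 UMIs at day 0 against 5173.5 in stromal-like cells, the thinned share was 0.339% at day 0 and 0.158% at day 21, and it was 0 of 590 cells at day 7. Fst was found in 24.5% of thinned stromal-like cells at day 0 and 13.2% at day 7, against 0.679% of endothelial-like cells at day 0. Day 0 endothelial-like cells under 1500 UMIs were left out too. The endothelial-like shares rest on few cells with a UMI, and differences between them were not tested. The order of the shares over the days was that of the CPM for Gdf10.

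Lists of pathway genes were counted in stromal-like cells beside the shares of all genes, of which 32.9% were lower and 33.3% higher at day 3, 25.8% and 28% at day 7 and 16.4% and 16.8% at day 21. At day 3, 6 of 9 tested BMP targets fell and 1 rose, led by Id3 (-1.78 ± 0.10, adjusted p = 5.1e-09), Msx1 (-2.52 ± 0.20) and Id1 (-1.95 ± 0.18). At day 7, 8 of 9 fell, with Id1, an inhibitor of differentiation and a direct SMAD target, at -3.22 ± 0.16 (adjusted p = 8.3e-09), Id3 at -1.72 ± 0.10 and the homeobox gene Msx1 at -2.49 ± 0.21. At day 21, 4 of 9 fell, with Id1 at -1.93 ± 0.20. The median over the tested targets was -1.78, -1.57 and -0.61 at days 3, 7 and 21. Of the receptors and co-receptors, 7 of 8 fell at day 3, 6 of 10 fell and 2 rose at day 7, and 3 of 8 fell and 1 rose at day 21. The co-receptor Rgmb was lower each time (-1.996 ± 0.20, -1.70 ± 0.16 and -1.09 ± 0.19), with Rgma (-1.54 ± 0.18) and Acvrl1 (-0.82 ± 0.12) next at day 3. At day 7 Acvrl1 was -1.10 ± 0.13 and the type I receptor Bmpr1b rose (3.16 ± 0.51, adjusted p = 1.9e-04). Acvr1, the receptor mutated in fibrodysplasia ossificans progressiva, rose at day 21 (0.81 ± 0.16, adjusted p = 0.00195), when Rgma was -0.61 ± 0.17.

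Of the other antagonists, 4 of 11 fell and 3 rose at day 3, 6 of 13 fell and 2 rose at day 7, and 1 of 11 fell and 4 rose at day 21. At day 3 both shares were near those of all genes. Smoc2, a matrix protein that opposes BMP signals, was lower at each time (-3.21 ± 0.11, -2.11 ± 0.14 and -0.76 ± 0.14), followed by Nbl1 (-1.86 ± 0.13) and Twsg1 (-1.27 ± 0.15) at day 3 and by Chrd, the gene of chordin (-1.80 ± 0.20), and Twsg1 (-1.02 ± 0.13) at day 7. Fstl1 (0.52 ± 0.087) and Nbl1 (0.39 ± 0.10) rose at day 21. Of the beta subunits of activins, which Fst binds, Inhba rose at day 3 (1.01 ± 0.17) and day 7 (1.31 ± 0.27) and Inhbb fell at day 21 (-0.88 ± 0.26). Inha, the inhibin alpha subunit, counted in the same list, rose at day 7 (1.997 ± 0.65). Among other ligands, Bmp7, an osteogenic BMP, fell (-4.11 ± 0.56, -2.82 ± 0.57 and -1.56 ± 0.53) and Gdf11 rose (2.06 ± 0.53, 2.62 ± 0.51 and 1.94 ± 0.54) at days 3, 7 and 21.

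In endothelial-like cells, the ligand Bmp2 and the pseudoreceptor Bambi were higher at day 7 than at day 0. Of 3 tested members, 2 rose, where 58.6% of 8678 genes passed and 29.5% were higher, and the median of the 3 was 0.64 against -0.017 over all genes. Bmp2 had 1 UMI in all day 0 endothelial-like cells, with library levels of 0, 0, 1.11 and 0 CPM. It thus passed the count filter through day 7 alone, which fixed its direction. The count and median above are therefore no separate support for a rise. Bmp2 was at 1.19, 8.21 and 10.5 CPM at day 3, 26.4, 39.5, 16.5 and 44.1 CPM at day 7 and 11.8, 4.05, 2.69 and 9.18 CPM at day 21. No library of days 7 or 21 overlapped day 0. At day 3 the lowest library (1.19 CPM) was just above the highest of day 0 (1.11 CPM), which such low counts cannot tell apart. The pooled ratio to day 0 was 126 at day 7, with a 95% counting interval of 22.5 to 5013, and 32.3 (5.50 to 1303) at day 21. The rise at day 7 passed in edgeR (adjusted p = 3.7e-07), and Bmp2 was not tested at days 3 and 21. Bambi was at 60.0, 49.1, 82.9 and 75.2 CPM at day 0 and 98.6, 98.7, 118 and 101 CPM at day 7, without overlap, a rise of 0.64 ± 0.14 (adjusted p = 0.00105).

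At each of days 3, 7 and 21, Bmp4 was higher in every endothelial-like than in every stromal-like library of that day. It was at 24.0, 43.9, 25.4 and 31.3 CPM at day 0, 52.1, 10.9 and 32.5 CPM at day 3, 22.9, 32.0, 22.3 and 15.8 CPM at day 7 and 41.2, 49.6, 37.6 and 50.2 CPM at day 21. Day 3 and day 7 overlapped day 0, and the change at day 7 was -0.38 ± 0.22 (adjusted p = 0.157). At day 21 it was the 1 of 2 tested members that rose (0.57 ± 0.19, adjusted p = 0.0421), where 26.8% of 8375 genes passed and 14% were higher. That call was lost in DESeq2 (adjusted p = 0.125) and without any of day 0 replicates 1, 3 or 4 or day 21 replicates 1, 2 or 4 (adjusted p 0.0562 to 0.124). It was also lost with replicates 1 to 3 only, in 1 fit of all 5 groups, at a 10% limit on mitochondrial UMIs and with members as variable genes (adjusted p 0.0524 to 0.177). At day 3 neither tested member, Bmp4 (0.19 ± 0.35) nor Bambi (-0.36 ± 0.22), passed in edgeR at an adjusted or unadjusted p of 0.05, where 58.2% of 8250 genes passed, while DESeq2, which tested all 9, called 1 member higher and 1 lower. Bmp6 had 15 UMIs in day 0 endothelial-like cells (4.28, 3.13, 2.21 and 4.48 CPM) and none at days 3 and 7. Its pooled level at day 7 was at least 8.98-fold lower by the floor of 3 counts.

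The endothelial-like lineage also changed its clusters. Cluster 13, led by Timp4, Aqp7 and Gpihbp1, held 934 of 995 cells at day 0, and cluster 11, led by Plvap, Aplnr and Selp, held 558 of 590 at day 7. Within cluster 11 Bmp2 was 3.796 ± 7.59 CPM at day 0 and 32.0 ± 12.4 CPM at day 7 (n = 4 each), and 2.86 ± 1.21 on the log2 scale did not pass (adjusted p = 0.113, 17.1% of genes passing). Bambi was 94.7 ± 44.1 and 104 ± 10.2 CPM in that cluster and did not pass there (0.17 ± 0.31, adjusted p = 0.768). At day 21, when cluster 13 held 331 of 632 cells, the Bmp4 rise did not pass in edgeR within single clusters. It was 0.45 in cluster 11 (adjusted p = 0.709) and 0.024 in cluster 13 (adjusted p = 0.976). Erythrocyte markers summed to 7350 to 12663 CPM in endothelial-like cells at day 0 and 1155 to 4712 CPM at day 7, and their part in the result was not tested. Without cells that had a Ptprc UMI, Bmp2 and Bambi were called at day 7 as before (0.61 ± 0.15 for Bambi), where 57.7% passed and 29.2% were higher.

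Of the targets in endothelial-like cells, 6 of 8 fell at day 3, 6 of 8 at day 7 and 4 of 8 at day 21, with none higher, where 28.8%, 29.1% and 12.8% of all genes were lower and 29.3%, 29.5% and 14% higher. Id1 changed by -1.49 ± 0.10, -1.74 ± 0.15 and -0.60 ± 0.13, Id3 by -1.72 ± 0.12 and -1.48 ± 0.12 at days 3 and 7, the inhibitory Smad7 by -1.99 ± 0.16 at day 3, Hey1 by -1.81 ± 0.16 and -0.71 ± 0.16 at days 7 and 21 and Msx1 by -0.92 ± 0.15 at day 21. Of the receptors, 3 of 6, 5 of 6 and 1 of 7 fell at the 3 times. Acvrl1, the endothelial type I receptor, fell at each (-1.44 ± 0.12, -1.62 ± 0.088 and -0.52 ± 0.11), and Bmpr2 (-0.97 ± 0.14 and -0.68 ± 0.14) and Rgmb (-1.12 ± 0.27 and -1.15 ± 0.20) at days 3 and 7. The activin subunit Inhbb rose (4.04 ± 0.39, 2.99 ± 0.39 and 2.49 ± 0.49), as did the antagonist Fstl1 (0.76 ± 0.13, 1.67 ± 0.10 and 1.14 ± 0.14), while Nbl1 fell at day 3 (-0.71 ± 0.29) and rose at day 21 (1.10 ± 0.25). These were 1 of 3 other antagonists higher and 1 lower at day 3, 1 of 3 higher at day 7 and 2 of 4 higher at day 21. Against stromal-like cells at day 7, 7 of 9 targets were higher and 1 lower, with Id1 at 5.49 ± 0.14, Hey1 at 4.69 ± 0.19 and Id3 at 1.30 ± 0.10. Over all genes 26.6% were higher and 32% lower. Mural-like cells had 6 of 10 targets higher than stromal-like cells and 0 lower, where 22% of genes were higher. The median over the targets was 1.59 there and 0.69 in endothelial-like cells. In monocyte/macrophage-like cells 1 of 9 was higher and 7 lower, where 40.9% of genes were lower.

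In mural-like cells, the pericytes and smooth muscle cells around vessels, Bmp2 was lower at days 3 and 7 and Fst higher at day 21 than at day 0. Bmp2 was at 128, 123, 105 and 112 CPM at day 0, 33.6, 46.2 and 32.3 CPM at day 3, 53.9, 32.9, 42.7 and 30.5 CPM at day 7 and 102, 125, 116 and 98.9 CPM at day 21. Days 3 and 7 lay below all libraries of days 0 and 21, which overlapped. The change was -1.67 ± 0.22 at day 3 (adjusted p = 1.7e-05, 1 of 3 tested members, 57.2% of 3967 genes passing and 29% lower), -1.64 ± 0.22 at day 7 (adjusted p = 5.9e-06) and -0.17 ± 0.16 at day 21 (adjusted p = 0.446). Bambi was the other of 2 members lower among 4 at day 7, where 46.6% of 7703 genes passed and 21.7% were lower. It was at 29.8, 8.77, 36.3 and 40.5 CPM at day 0 and 14.96, 14.6, 15.2 and 7.99 CPM at day 7, which overlapped through day 0 replicate 2, and its fall of -1.35 ± 0.38 (adjusted p = 0.00732) did not pass without day 0 replicate 4 (adjusted p = 0.0546), with replicates 1 to 3 only (0.0729) or in cluster 14. Without any 1 of the 4 day 7 libraries Bambi was under the count filter.

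Bmp5 was at 42.6, 43.9, 28.2 and 27.0 CPM at day 0, 26.1, 44.0 and 30.9 CPM at day 3, 32.2, 24.1, 19.3 and 20.3 CPM at day 7 and 41.5, 41.6, 42.8 and 45.9 CPM at day 21. No change from day 0 passed (-0.089 ± 0.33, -0.62 ± 0.32 and 0.25 ± 0.24). Fst was at 38.3, 61.4, 80.6 and 54.0 CPM at day 0, 22.4, 77.0 and 51.5 CPM at day 3, 65.1, 51.3, 64.8 and 28.3 CPM at day 7 and 203, 383, 260.1 and 223 CPM at day 21, where every library was above those of the other days. It was the 1 of 4 members called at day 21 (2.08 ± 0.26, adjusted p = 1.5e-05), where 31.7% of 6194 genes passed and 15.8% were higher. The medians of the tested members were -0.32, -0.98 and 0.041 at days 3, 7 and 21, against 0.023, 0.091 and 0.015 over all genes.

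That rise did not pass in cluster 14 and was not tested in cluster 19, where counts were low. Cluster 14, the Rgs5 and Kcnj8 pericyte-marker cells, was 37 of 182 mural-like cells at day 0, 470 of 559 at day 7 and 330 of 581 at day 21, and the rest was cluster 19, led by Myh11 and Pln. Fst in cluster 14 was 467 ± 105 CPM at day 0 (2 libraries), 63.3 ± 35.9 CPM at day 3 (n = 3), 58.3 ± 21.2 CPM at day 7 and 411 ± 95.3 CPM at day 21 (n = 4 each). Within it Fst was lower than day 0 at day 3 (-2.54 ± 0.56, adjusted p = 0.0126, 8.92% of genes passing and 2.49% lower) and day 7 (-2.48 ± 0.45, adjusted p = 4.9e-04, 8.89% passing and 1.89% lower), and 0.18 ± 0.31 at day 21 (adjusted p = 0.845, 5.11% passing). In cluster 19 it was 8.02 ± 10.7, 17.1 ± 15.3 and 51.2 ± 43.8 CPM at days 0, 7 and 21. Bmp2 did not pass within cluster 14 at day 3 or 7, or within cluster 19 at day 7, and was not tested in cluster 19 at day 3. In cluster 14 it was 85.1 ± 18.4 CPM at day 0, from 5 UMIs in 2 libraries, 32.5 ± 5.35 CPM at day 3 and 35.6 ± 4.59 CPM at day 7, without overlap, and the fitted changes were -0.95 ± 0.69 and -0.75 ± 0.67 (adjusted p = 0.442 and 0.511). It was 115 ± 4.55 CPM in cluster 19 at day 0 and 57.3 ± 44.5 CPM at day 7 (-0.82 ± 0.35, adjusted p = 0.0977, 27.5% passing).

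**Figure D4:**
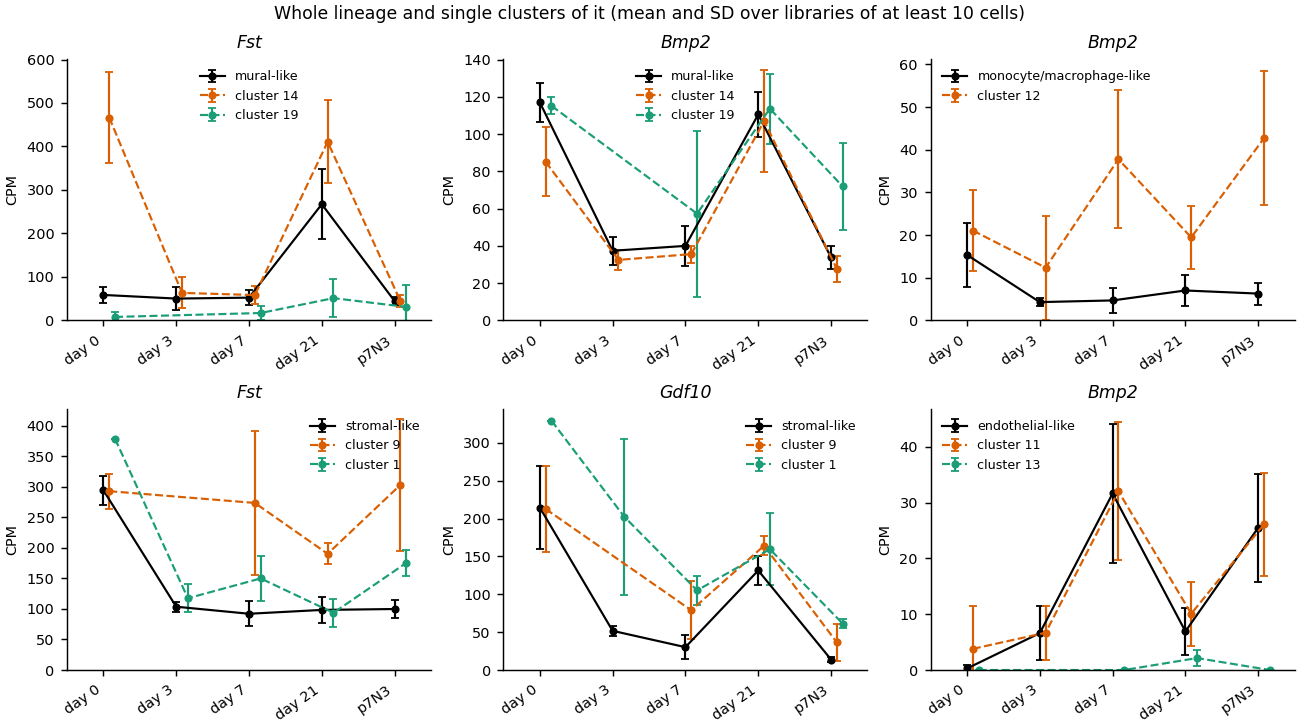
Mean CPM (linear axes from 0, bars SD over libraries with at least 10 cells, lines joining means) of a lineage (black) and of single clusters in it. Cluster 1 at day 0 is 1 library, cluster 14 at day 0 is 2, and clusters 9 and 19 have no day 3 point. Fst in cluster 14 had means of 467 CPM at day 0 and 411 CPM at day 21, while the whole mural-like lineage had 58.6 and 267 CPM.

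Stromal markers summed to 1179 to 2448 CPM in mural-like cells at day 0 and 6541 to 9384 CPM at day 21, and their part in the Fst level was not tested. Of the targets in these cells, 3 of 6 fell at day 3, 5 of 6 at day 7, and 2 fell and 2 rose at day 21, where 29%, 21.7% and 15.9% of all genes were lower and 28.1%, 25% and 15.8% higher. Id2 (-1.33 ± 0.26 and -2.25 ± 0.22) and Msx1 (-1.15 ± 0.31 and -1.32 ± 0.28) fell at days 3 and 7, Id1 fell throughout (-1.47 ± 0.35, -2.18 ± 0.25 and -1.14 ± 0.19), and Id4 (1.36 ± 0.21) and Id3 (0.35 ± 0.11) rose at day 21. Of the receptors, 1 of 4 rose and 3 fell at day 3, 1 of 7 rose and 2 fell at day 7, and 1 of 6 rose and 1 fell at day 21. The co-receptor endoglin (Eng) rose at each time (1.13 ± 0.27, 1.04 ± 0.22 and 0.87 ± 0.29) and Bmpr1a was lower (-0.86 ± 0.23, -0.95 ± 0.21 and -0.47 ± 0.17), with Rgma (-1.40 ± 0.36) at day 3 and Bmpr2 (-0.75 ± 0.23) at day 7. Fstl1 rose at each time (1.87 ± 0.18, 1.53 ± 0.16 and 1.47 ± 0.14), 1 of 3 other antagonists at day 3. At day 7 it was 1 of 5, with Twsg1 (-0.85 ± 0.25) and Nbl1 (-0.61 ± 0.19) lower, and at day 21 3 of 4 rose, with Nbl1 at 0.51 ± 0.14 and Fstl3 at 0.88 ± 0.32. Gdf11 fell (-2.67 ± 0.45, -1.89 ± 0.29 and -1.13 ± 0.30).

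Monocyte/macrophage-like cells, the myeloid cells that fill the site after injury, had enough counts to test Bambi and Bmp2 against day 0, but not the other members. Bambi was at 15.6, 14.03, 9.75 and 15.6 CPM at day 0, 32.8, 27.8 and 38.5 CPM at day 3, 13.99, 15.4, 13.5 and 16.4 CPM at day 7 and 9.98, 8.28, 7.35 and 7.89 CPM at day 21. Day 3 lay above all other days, and Bambi, the only member tested there, rose by 1.29 ± 0.28 (adjusted p = 0.00225), where 52.2% of 6255 genes passed and 24.9% were higher. Bmp2 was at 9.37, 10.5, 26.0 and 15.6 CPM at day 0 and 3.26, 2.80, 9.07 and 3.62 CPM at day 7, each day 7 library being below each day 0 library. It was the 1 of 2 tested members that fell at day 7 (-1.48 ± 0.55, adjusted p = 0.0441, 35.3% of 9547 genes passing and 17% lower), and no member passed with any of the 8 libraries left out. Without a day 0 library its adjusted p was 0.0618 to 0.221, and without a day 7 library it was under the count filter. At day 21 no member was tested, and 25.5% of 6908 genes passed. Within cluster 12, the Cd163 and Folr2 macrophages that were 301 of 391 cells at day 0 and 418 of 4889 at day 7, Bmp2 was 21.1 ± 9.41 CPM at day 0 and 37.8 ± 16.2 CPM at day 7 (n = 4 each), the opposite direction (0.79 ± 0.44, adjusted p = 0.199, 26.5% of genes passing). At day 3, cluster 4, led by Arg1, held 1878 of 3751 cells and cluster 5, led by Chil3, held 1519. Cluster 5 was 4.60% of the lineage at day 0 and 40.5% at day 3. Over the libraries of all groups with at least 10 of its cells, Bambi was 37.9 ± 24.9 CPM in cluster 5 (n = 13). In cluster 4 Bambi was 12.3 ± 7.40 CPM (n = 11), and the part of the clusters in its day 3 rise was not tested.

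Of the 4 tested targets in monocyte/macrophage-like cells, Id2 rose at days 3, 7 and 21 (1.26 ± 0.14, 1.44 ± 0.19 and 1.01 ± 0.14) and Id1 fell (-1.43 ± 0.33, -2.68 ± 0.41 and -1.94 ± 0.41), with Id3 lower at day 7 (-0.82 ± 0.20). Fstl1 was higher at the same times (1.13 ± 0.41, 1.61 ± 0.29 and 1.30 ± 0.33), 1 of 1, 1 of 5 and 1 of 2 other antagonists. Over all genes 24.9%, 18.3% and 12.1% were higher at these times and 27.3%, 17% and 13.4% lower. Eng fell at day 3 (-0.89 ± 0.24) and day 7 (-0.95 ± 0.27), with Acvrl1 (-0.52 ± 0.18) at day 3 and Acvr2b (-1.84 ± 0.62) at day 7, 2 of 3 and 2 of 7 receptors.

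Whether a gene's change from day 0 differed between lineages was tested directly, as a difference of log2 fold changes in a model of both lineages. Endothelial-like minus stromal-like differences for Bmp4 were 4.39 ± 0.47, 3.06 ± 0.29 and 2.67 ± 0.33 at days 3, 7 and 21 (edgeR adjusted p = 2.2e-07, 6.7e-08 and 2.1e-05), where 24.6%, 27.2% and 14% of genes passed. Bambi differed at day 7 (0.74 ± 0.20) and day 21 (1.13 ± 0.24), and Bmp2 on all 3 days. Endothelial-like cells had 1 Bmp2 UMI at day 0, a level that could hardly fall. This largely fixed the direction of the Bmp2 differences, which are no separate support, though counted among those that passed. Mural-like minus stromal-like differences passed for Fst on all 3 days, at 1.10 ± 0.34, 1.46 ± 0.28 and 3.68 ± 0.22 (adjusted p = 0.0189, 4.4e-04 and 2.0e-11), where 22.7%, 23.9% and 11.8% of genes passed. They also passed for Bmp5 at day 3 (2.48 ± 0.47) and day 7 (1.55 ± 0.47), for Bambi at day 7 (-1.17 ± 0.41) and for Bmp2 at day 21 (2.28 ± 0.26). The call of Fst at day 3 was lost without any of day 0 replicates 1 or 4 or day 3 replicates 2 or 3 (0.75 to 1.03). That of Bmp5 at day 7 was lost without any of day 0 replicates 1, 3 or 4 (1.43 to 1.56), and that of Bambi without any of these or day 7 replicate 4 (-1.13 to -0.99). In all, 15 of 59 differences tested passed, including those of p7N3 against day 7, of which none did beside 0% and 0.00743% of genes.

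**Figure D5:**
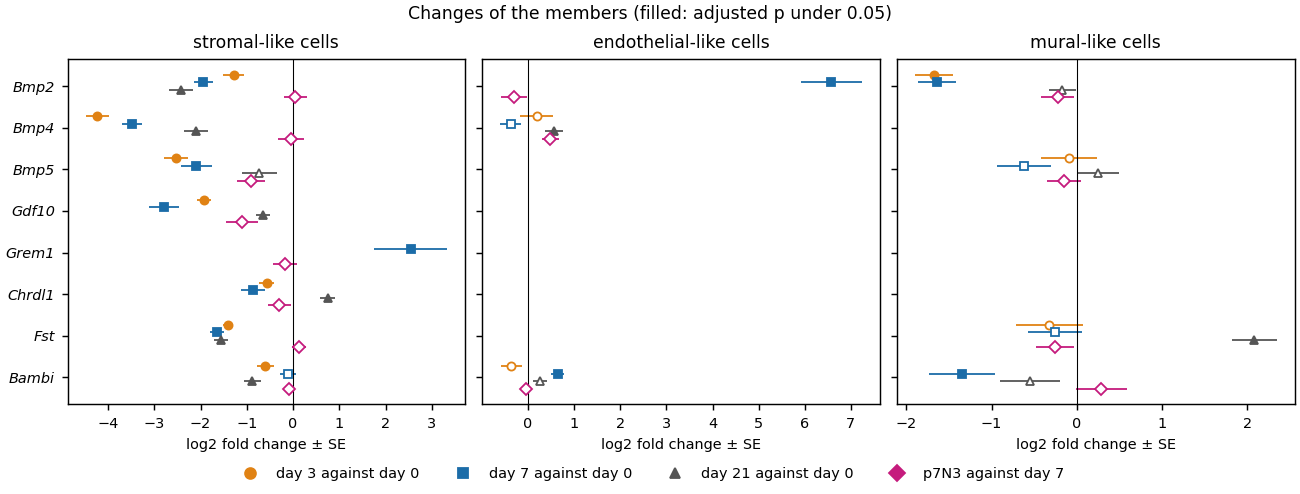
Log2 fold changes with SE of the members that were tested in stromal-like, endothelial-like and mural-like cells, with filled symbols where the adjusted p is under 0.05 and an axis range of its own for each panel. No p7N3 symbol is filled, and Bmp4 stood at -4.24 in stromal-like cells at day 3 but 0.19 in endothelial-like cells.

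With p7N3, none of the members passed against day 7 in any of the 4 lineages. In stromal-like cells 0 of 8 tested members and 0% of 13227 genes passed in edgeR, 2 members, Gdf10 and Bmp5, had an unadjusted p below 0.05, and DESeq2 called none of the members and 78 genes in all. Gdf10 was at 42.8, 21.1, 43.7 and 13.2 CPM at day 7 and 11.8, 17.4, 11.3 and 14.98 CPM with p7N3. The groups overlapped through day 7 replicate 4, and the log2 change was -1.10 ± 0.34 (adjusted p = 0.346). Bmp5 was at 1.84, 1.93, 4.47 and 2.61 CPM at day 7 and 1.32, 1.39, 1.43 and 1.62 CPM with p7N3, without overlap (-0.91 ± 0.30, adjusted p = 0.368). Grem1 was at 5.81, 3.87, 5.12 and 5.97 CPM (-0.17 ± 0.26), Chrdl1 at 12.7, 18.6, 15.04 and 12.9 CPM (-0.30 ± 0.25) and Fst at 97.4, 91.6, 122 and 88.9 CPM (0.13 ± 0.16), each overlapping day 7. Bmp2 (0.048 ± 0.25), Bmp4 (-0.049 ± 0.29) and Bambi (-0.089 ± 0.10) overlapped as well, and the median of the 8 was -0.13 against 0.00027 over all genes.

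In cluster 1 alone, chosen after the data were seen, Gdf10 was 105 ± 19.5 CPM at day 7 and 61.4 ± 5.87 CPM with p7N3 (n = 4 each) and passed (-0.79 ± 0.13, adjusted p = 0.0266), where 0.249% of genes did and 0.0299% were lower. In cluster 9 it was 78.9 ± 38.1 and 36.5 ± 24.0 CPM (-1.42 ± 0.43, adjusted p = 0.737). Cluster 1 made up 1516 of 4173 stromal-like cells at day 7 and 900 of 3487 with p7N3. Gdf10 was itself among its leading genes. In the finer clustering, the cluster led by Sfrp4 and Gdf10 held 580 cells at day 7 and 366 with p7N3. That led by Ptn and Igf2 held 544 and 195. The part of such makeup in the cluster 1 call was not tested. Endothelial-like cells gave 0 of 3 members and 0% of 9659 genes in edgeR, 1 member having an unadjusted p below 0.05 and DESeq2 calling none. That member was Bmp4, at 22.9, 32.0, 22.3 and 15.8 CPM at day 7 and 31.2, 29.3, 31.9 and 41.9 CPM with p7N3 (0.48 ± 0.19, adjusted p = 0.521), with overlap. Bmp2 was at 18.4, 39.7, 20.6 and 23.3 CPM (-0.30 ± 0.28) and Bambi at 85.9, 102, 99.8 and 122 CPM (-0.041 ± 0.11). In mural-like cells 0 of 4 members passed, 0.0106% of 9415 genes did, and none of the 4 had an unadjusted p below 0.05 or a DESeq2 call, with changes from -0.26 ± 0.23 for Fst to 0.29 ± 0.30 for Bambi. In monocyte/macrophage-like cells 0 of 3 passed beside 0.00914% of 10941 genes, none had an unadjusted p below 0.05 in edgeR or a call in DESeq2, and Bmp2 was at 0.51 ± 0.38, Fst at 0.62 ± 0.38 and Bambi at 0.054 ± 0.16. No gene of the receptor, target, antagonist, activin or other ligand lists was called with p7N3 in these lineages.

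Outside these 4 lineages the members had further sources. Cells with satellite cell and myoblast markers (Myf5, Pax7 and Myog) had the highest Bmp4 of any named lineage at day 0, at 125, 188, 147 and 166 CPM, and held 25.7% ± 9.15 of its UMIs. At day 21 their level was 169.7, 129 and 81.6 CPM in the 3 libraries that had at least 10 such cells. In cells with tendon and cartilage markers Chrdl1 was at 17.9, 28.8, 26.2 and 18.5 CPM at day 7 and 61.4, 63.5, 60.9 and 54.3 CPM at day 21, every day 21 library being higher, and they held 51.8% ± 7.25 of its UMIs at day 21. Different clusters made up these cells, cluster 16, led by Col2a1 and Cilp2, holding 51 of 52 at day 0 and 978 of 1246 at day 21, and cluster 2, led by C1qtnf3 and Scx, 1612 of 1650 at day 7. Cluster 2 had a higher marker score as stroma (0.916) than as tendon (0.856). It was set apart from the stromal-like cells by Scx among its leading genes. Chrdl1 was 63.6 ± 0.492 CPM at day 7 (2 libraries) and 63.8 ± 6.97 CPM at day 21 in cluster 16, and 22.0 ± 5.48 and 48.7 ± 15.3 CPM in cluster 2 (n = 4 each). Bmp5 was at 73.5, 41.8, 66.3 and 44.6 CPM in the 52 such cells of day 0 and at 3.94, 3.35, 4.97 and 3.33 CPM at day 7. In cluster 16 alone it was 61.4 ± 15.03 CPM at day 0 (n = 3), 24.0 ± 33.9 CPM at day 7, from 6 UMIs in 2 libraries, and 3.85 ± 1.34 CPM at day 21 (n = 4). Bambi was at 210.4 and 129 CPM in lymphatic endothelial-like cells of the 2 day 0 libraries with at least 10 of them and at 19.99, 39.9, 86.3 and 62.6 CPM at day 7. These changes were not tested.

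The genes whose log2 CPM pattern was most like a member's were taken over 135 sums of a library and a lineage, of 10692 genes, as a description, since sums of a library share its depth. Bmp5 had the highest Pearson r, with Naalad2 (0.913), Aoc3 (0.879) and Foxs1 (0.872), and Bmp4 followed Ramp2 (0.863), Tek (0.809) and Cd34 (0.807). Fst was most like Srpx (0.865), Vasn (0.858) and Sdc2 (0.857), and Chrdl1 most like Mfap5 (0.857), Apod (0.833) and Entpd2 (0.820). Bmp2 went with Il6 (0.764), Zak (0.741) and Dstn (0.721), Gdf10 with Dpep1 (0.762), Tmeff2 (0.750) and Nova1 (0.735), and Grem1 with Brinp3 (0.757), Capn6 (0.692) and Lum (0.678). Bambi (Ushbp1 0.652, Clec1a 0.640 and Nova2 0.634) and Bmp6 (Thrsp 0.586, Fmo2 0.549 and Car8 0.545) had the lowest. Between members, r was highest for Fst and Chrdl1 (0.700), Fst and Bmp5 (0.688) and Bmp2 and Bmp5 (0.633), and lowest for Bambi and Bmp5 (-0.137).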

How the data were processed

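Single-cell libraries (10x 3' chemistry, 19 in 5 groups, 39541 cells kept) were analysed. The authors deposited UMI counts per gene and barcode, made with Cell Ranger, and Seurat is also named. The labels list mm10 for the replicate 4 libraries and GRCh38 for the others, while the methods state mm10. The reads themselves were not used. Raw UMI counts favour deep libraries, so levels were scaled to CPM per lineage.

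The cut-offs of the study's methods, a minimum of 500 detected genes and a mitochondrial share of no more than 25%, selected cells, also in day 0 replicate 1, which was deposited as an unfiltered matrix. Normalised log counts of 2000 variable genes, with 60 member and pathway genes left out, 30 principal components, 20 neighbours and Leiden clustering at a resolution of 0.8 gave 33 clusters (scanpy 1.11.5, leidenalg 0.10.2), named from fixed markers, of which Cnmd and Trbc2 matched no gene. Doublets were left in, and an alternative removed the top 3.9% of Scrublet scores. Counts were summed per library and lineage with at least 10 cells and tested with edgeR 4.0.16 (TMM, filterByExpr, quasi-likelihood test, Benjamini-Hochberg over all genes, threshold 0.05) in R 4.3.3, each pair of groups in a fit of its own. DESeq2 1.42.0 was an alternative. The step was tested on simulated counts.

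Other alternatives were the replicate block, a Leiden resolution of 2, RLE size factors, leaving out single libraries or the later replicate 4, members allowed as variable genes, dropping the filter on low counts or asking for 10 UMIs of a gene in each library, fitting the 5 groups together, adding tenocyte-like and chondrocyte-like clusters to the stromal-like cells, and a 10% limit on mitochondrial UMIs. Lineages were also compared without the library block. Left out after seeing the data were cells with a Ptprc UMI, cluster 17 and all but single clusters. Named genes were the 9 members and, of each pathway list and comparison, up to 3 called genes with the lowest p. Likeness used log2(CPM + 1) in lineage sums of at least 20 cells, among genes with a mean of at least 5 CPM. Counting intervals are exact at 95%. The members and the lists were chosen with earlier results of these data known. Sequences are from RefSeq.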

Additional observations from a re-analysis of the deposited data

Results flagged for a closer look

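Of 65 sets of 4 libraries examined (a gene in a lineage at a day), 2 had a library apart from the other 3 by Dixon's 95% critical value, a rule that chance meets in about 1 set in 20. Bambi was at 118.39 CPM in endothelial-like cells of day 7 replicate 3, where the other 3 libraries were at 98.572 to 100.72 CPM. It was at 7.988 CPM in mural-like cells of day 7 replicate 4, where the others were at 14.561 to 15.159 CPM.

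Changes from day 0 that differed between lineages, by the interaction term of edgeR's quasi-likelihood test, were listed as well. In endothelial-like minus stromal-like cells, Bmp2 gave 5.9723 ± 1.06 at day 3 (adjusted p = 1.7e-04), 8.7253 ± 0.73 at day 7 (adjusted p = 1.3e-08) and 7.1069 ± 0.87 at day 21 (adjusted p = 1.6e-05) on the log2 scale. These rest on 1 Bmp2 UMI in endothelial-like cells of day 0, so that their size depends on the prior count and their direction was largely fixed. Bmp4 gave 4.3888, 3.0645 and 2.6699 at the same times, and Bambi 0.7439 at day 7 (adjusted p = 0.00763) and 1.1259 at day 21 (adjusted p = 0.00286). In mural-like minus stromal-like cells, Fst gave 1.0954, 1.4577 and 3.6768 at days 3, 7 and 21, Bmp5 2.4844 at day 3 (adjusted p = 1.7e-04) and 1.5491 at day 7 (adjusted p = 0.0167), Bambi -1.1723 at day 7 (adjusted p = 0.0401) and Bmp2 2.2778 at day 21 (adjusted p = 6.6e-07). The share of the lineage held by each cluster also differed between the days, and its part in these differences was not tested.

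The deposited matrix of day 0 replicate 1 held barcodes that were not cells. In 367011 of them, with under 100 UMIs each and 3782619 in all, 7 of the 9 members had more than 3 UMIs. Fst stood at 55.3 CPM there and at 108 CPM in the cells of that library, Gdf10 at 44.4 and 81.0 CPM, Bmp4 at 14.3 and 44.8 CPM, Bmp2 at 9.52 and 22.8 CPM, Chrdl1 at 14.5 and 22.3 CPM, Bambi at 25.1 and 32.5 CPM and Bmp5 at 8.20 and 10.4 CPM.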

How the results depend on the processing

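Depth over all cells was lowest in the day 0 libraries and, in endothelial-like and mural-like cells, few cells were counted at day 3. Low counts leave Grem1, Bmp6 and most members of endothelial-like, mural-like and monocyte/macrophage-like cells untested in some comparisons. Over 52 calls of a member, the alternatives fixed at the start gave 827 values, of which 799 kept direction and call, 28 kept direction and lost the call, and 0 reversed. Those added after seeing the data gave 55, of which 36 kept both, 16 lost the call and 3 reversed. In both sets, an alternative under which a called member was not tested gave no value. Asking for at least 10 UMIs in every library thus gave 29 values for the 52 calls. The reversed values were Chrdl1 in stromal-like cells at day 3 without cluster 17 (0.49), Chrdl1 at day 7 in cluster 9 (0.13) and Bmp2 in monocyte/macrophage-like cells at day 7 in cluster 12 (0.79). Of 146 values of the differences between lineages, 135 kept direction and call, 11 lost it and 0 reversed. The 11 were of Fst at day 3 (0.75 to 1.03), Bmp5 at day 7 (1.43 to 1.56) and Bambi at day 7 (-1.13 to -0.99) in mural-like minus stromal-like cells, each with 1 library left out.

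Counts of called members moved by over 1.5 times as follows. In stromal-like cells cluster 9 alone gave 2 in place of 7 at day 7 and 2 in place of 6 at day 21, and cluster 1 alone gave 1 in place of 0 for p7N3. In endothelial-like cells at day 3 the count of 0 became 2 in DESeq2, 2 with no filter on low counts, 1 in 1 fit of all 5 groups, 1 with members allowed as variable genes and 0 to 1 with a library left out. At day 7 the count of 2 became 4 with no filter, 1 with at least 10 UMIs in every library and 0 in cluster 11. At day 21 the count of 1 became 3 with no filter, 0 with replicates 1 to 3 only, with at most 10% mitochondrial UMIs, with members as variable genes and in clusters 11 and 13, and 0 to 1 with a library left out.

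In mural-like cells the count of 1 at day 3 became 2 with no filter, 2 in 1 fit of all groups and 1 to 2 with a library left out. The count of 2 at day 7 became 1 with at least 10 UMIs, with replicates 1 to 3 only and in cluster 14, 0 in cluster 19 and 1 to 2 with a library left out. The count of 1 at day 21 became 0 with at least 10 UMIs and in clusters 14 and 19. In monocyte/macrophage-like cells the count of 1 at day 3 became 2 in DESeq2, with no filter, with replicates 1 to 3 only and in 1 fit of all groups, 0 with at least 10 UMIs and in cluster 12, and 1 to 2 with a library left out. The count of 1 at day 7 became 2 with no filter and 0 with at least 10 UMIs, with replicates 1 to 3 only, in 1 fit of all groups, in cluster 12 and with any library left out. At least 10 UMIs in every library left 3, 4 and 1 called members of 8, 8 and 7 for endothelial-like, mural-like and monocyte/macrophage-like against stromal-like cells. Fewer members are tested under the stricter filter and fewer libraries or cells in the subsets, and the cause of the other shifts was not tested.

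Libraries of different groups share replicate numbers. Same-numbered libraries had correlations of their deviations of -0.16 to 0.12, not all above 0.1, so that the numbers were not taken as pairs. With the replicate block the count became 2 in place of 1 in endothelial-like cells at day 21 and in monocyte/macrophage-like cells at day 3, and Bambi in stromal-like cells at day 3 lost its call (-0.46, adjusted p = 0.060). Without the library block, all 23 calls between lineages at day 7 were kept.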
